A study of Homo sapiens with 10 samples.

Results

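The sites that HER2 occupied after EGF were compared between 2 established lines of human breast cancer cells, SKBR3 and BT474, which both carry extra copies of ERBB2, the gene for HER2. Members were all peaks of the SKBR3 EGF list and of the BT474 EGF list, and a peak was placed in both lines when it overlapped a peak of the other line by at least 1 bp. The lists held 2520 SKBR3 peaks and 29326 BT474 peaks, together 31846 of the 43001 HER2 peaks of the series. Cells growing in serum-containing medium, with no serum withdrawal, received EGF at 100 ng/ml or water (vehicle) for 3 hours, and DNA bound by a HER2 antibody was mapped by ChIP-exo, in which an exonuclease trims the bound fragments. Each condition was 1 library, so differences between the lines had no replicate check and no test was run on them. The labels name different lots of the same antibody for the lines, and the lines grew in different media, so lot, medium and cell line cannot be told apart. Monomethylated lysine 4 of histone H3 (H3K4me1), a mark of enhancers, was mapped by ChIP-seq in 2 replicates of each line, in cells that the labels call asynchronous and the study calls EGF-treated.

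HER2 is a receptor tyrosine kinase of the ERBB family. It has no known ligand and signals at the cell membrane by pairing with EGFR, ERBB3 or ERBB4, and EGF acts on it through EGFR. Downstream lie the MAP kinase cascade, PI3K and AKT, and protein kinase C, and intact HER2 has also been described in the nucleus, which is the question these maps address. The H3K4me1 islands were first read against the cell lines. ERBB2 itself lay almost wholly in islands, at 97.4% ± 0.333 of its length in SKBR3 and 100.0% ± 0 in BT474 (SD, n = 2). The luminal genes GATA3 and CDH1 were covered at 0% in SKBR3 and at 54.5% ± 1.89 and 57.8% ± 1.15 in BT474, and PGR, the progesterone receptor, at 2.97% ± 0.807 and 87.6% ± 1.41. KRT8, a luminal keratin, was covered alike at 64.7% ± 4.02 and 63.0% ± 0.536. KRT18, its partner, was covered at 8.55% ± 12.1 and 56.7% ± 7.01, ESR1, the oestrogen receptor, at 19.2% ± 0.658 and 26.8% ± 0.747, VIM at 11.8% ± 1.51 and 33.8% ± 15.1, and KRT5, a basal keratin, at 54.7% ± 22.4 and 0.957% ± 1.35. The lines thus differed at PGR, GATA3, CDH1 and ESR1 by far more than their replicates did, and not at KRT8. KRT18 and VIM were also covered more in BT474 and KRT5 more in SKBR3, with a wider spread between replicates.

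Sequences at the peaks are shown first, because what lay under the midpoints differed between the sites of both lines and the SKBR3-alone sites. The part-palindromic core named by the study, CGTNTGC or GCANACG on the other strand, was sought in either orientation up to 50 bp from the midpoint of a peak. Strands are given as the GRCh37 strand that reads GCANACG, and the core stands in capitals. These are the best-ranked SKBR3 peaks with a core that were also listed in BT474.
SKBR3 rank 50 (intergenic, 24.8 kb from TH), chr11:2217784-2217838, minus strand: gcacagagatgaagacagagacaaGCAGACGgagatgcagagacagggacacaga
SKBR3 rank 61 (intron of a long non-coding RNA gene), chr10:66315657-66315711, minus strand: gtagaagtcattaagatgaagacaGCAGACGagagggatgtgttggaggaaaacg
SKBR3 rank 63 (KCNMA1 intron), chr10:79379080-79379134, minus strand: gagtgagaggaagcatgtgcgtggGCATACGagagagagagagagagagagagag
SKBR3 rank 74 (GCGR intron), chr17:79767244-79767298, minus strand: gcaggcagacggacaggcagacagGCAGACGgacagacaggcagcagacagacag
SKBR3 rank 76 (OPCML intron), chr11:133290333-133290387, minus strand: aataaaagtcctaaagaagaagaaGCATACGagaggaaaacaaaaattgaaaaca
SKBR3 rank 80 (GNPAT intron), chr1:231412720-231412774, plus strand: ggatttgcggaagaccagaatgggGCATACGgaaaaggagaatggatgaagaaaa
The 24 bases to each side were 75 to 87.5% purine in these sequences, and at some sites, such as the sites in KCNMA1 (a potassium channel) and GCGR (the glucagon receptor), they ran as repeats of GA, or of CAGA and its variants.

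SKBR3-alone peaks held the core less often and were led by other stretches of 8 bases. The best-ranked 4 SKBR3-alone peaks with AGACGGCA, in capitals, are given on the strand that reads so.
SKBR3 rank 962 (ASB7 intron), chr15:101148120-101148175, minus strand: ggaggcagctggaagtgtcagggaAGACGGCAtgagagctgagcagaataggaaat
SKBR3 rank 1156 (intergenic, 167 kb from BRINP1), chr9:121748421-121748476, minus strand: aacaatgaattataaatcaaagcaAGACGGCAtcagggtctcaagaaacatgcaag
SKBR3 rank 1273 (AHR intron), chr7:17035595-17035650, minus strand: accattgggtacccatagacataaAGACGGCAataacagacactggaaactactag
SKBR3 rank 1451 (CACNG2 intron), chr22:37009496-37009551, minus strand: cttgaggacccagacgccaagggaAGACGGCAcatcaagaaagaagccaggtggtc
AHR encodes the aryl hydrocarbon receptor, and CACNG2 a regulatory subunit of AMPA-type glutamate receptors. These sites sat in the middle and lower ranks of the SKBR3 list.

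The best-ranked 2 SKBR3-alone peaks with the core both lay on 20q, the long arm of chromosome 20, inside a stretch without BT474 peaks that is described further on.
SKBR3 rank 83 (LINC01524 intron), chr20:51078442-51078496, minus strand: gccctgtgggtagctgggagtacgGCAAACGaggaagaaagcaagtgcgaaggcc
SKBR3 rank 198 (intergenic, 192 kb from CBLN4), chr20:54380043-54380097, minus strand: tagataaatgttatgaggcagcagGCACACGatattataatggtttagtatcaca
For comparison, these are the best-ranked 3 BT474-alone peaks with the core.
BT474 rank 72 (intergenic, 44.9 kb from POGK), chr1:166763842-166763896, minus strand: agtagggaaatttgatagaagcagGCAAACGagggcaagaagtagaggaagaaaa
BT474 rank 78 (intergenic, 15.1 kb from ARHGAP42), chr11:100542836-100542890, plus strand: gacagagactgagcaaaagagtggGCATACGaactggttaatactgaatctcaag
BT474 rank 189 (intergenic, 120 kb from SIX2), chr2:45356539-45356593, minus strand: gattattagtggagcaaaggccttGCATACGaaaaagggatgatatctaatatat
POGK and SIX2 encode DNA-binding proteins. The variable base of the core was T in 2 of these 3 BT474-alone sites and in neither of the SKBR3-alone sites on 20q.

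Within that distance, 287 of the 2135 SKBR3 peaks found in both lines held the core (13.4%, 95% Wilson interval 12.1 to 15.0%), as did 14 of the 385 SKBR3-alone peaks (3.64%, 2.18 to 6.01%) and 1982 of the 27216 BT474-alone peaks (7.28%, 6.98 to 7.60%). The intervals of the 3 classes did not overlap, and they cover counting error only. Peaks in both lines were centred here on their SKBR3 midpoints. Centred on BT474 midpoints, 215 of the 2110 BT474 peaks in both lines held the core (10.2%, 8.97 to 11.55%). That was lower, but still above the interval of all BT474-alone peaks. With equal numbers of peaks, and SKBR3 midpoints for both lines, the shares were 15.2%, 9.74% and 8.87%. The order of SKBR3 alone and BT474 alone thus turned, and SKBR3 alone here takes in peaks that met lower-ranked BT474 peaks. The interval of these 1533 BT474-alone peaks, 7.55 to 10.4%, overlapped that of the 2110 BT474 peaks in both lines. Over the whole peak, 19.6% of those 2110 held the core, 18.4% of the 1533 and 11.1% of all BT474-alone peaks. How far both lines lay above BT474 alone therefore depended on the midpoints and ranks used. For the 3 classes of the full lists, windows of the same size 1 kb to either side held the core in 1.33%, 1.04% and 0.928%. The lower share among SKBR3-alone peaks was also seen among ranks 1 to 1260 of the SKBR3 list, at 3.13% against 10.7% of the peaks in both lines, and among the lower ranks, at 3.89% against 16.6%. It was seen among peaks of exactly 200 bp, at 4.12% against 14.4%, and among wider ones, at 3.41% against 13.1%. Mean GC content within 50 bp was 43.1% in both lines, 43.5% in SKBR3 alone and 41.3% in BT474 alone. Within the core, GCATACG made up 57.6% of the 309 core sites in both lines, 55.1% of the 2025 in BT474 alone and 21.4% of the 14 in SKBR3 alone.

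Repeats behaved as the core did, with peaks in both lines again centred on SKBR3 midpoints. GAGAGAGA, read on both strands, lay within 50 bp of 13.6% of the midpoints in both lines, 5.71% in SKBR3 alone and 8.93% in BT474 alone, against 1.73%, 1.30% and 1.35% of the windows 1 kb away. AGAGACAG was found in 14.2%, 4.42% and 5.77%. SKBR3 alone was the highest class for AGACGGCA, which was found in 25 SKBR3-alone peaks (6.49%, 4.44 to 9.41%), 40 peaks of both lines (1.87%, 1.38 to 2.54%) and 183 BT474-alone peaks (0.672%, 0.582 to 0.777%), and in 0%, 0.164% and 0.0661% of the windows. In SKBR3 alone, 23 of the 25 fell below rank 1260, where the share was 8.95% (6.04 to 13.1%) against 2.39% (1.61 to 3.54%) of the peaks in both lines. Above that rank the shares were 1.56% and 1.41%. The near match AGACAGCA, which ranked first of the 8-base stretches at SKBR3-alone peaks with AGACGGCA second, followed the same order. It was found at 7.01% in SKBR3 alone, 2.81% in both lines and 1.90% in BT474 alone. AGACGGCA ends in the bases GCA with which the core begins, and 8 peaks of both lines, 26 BT474-alone peaks and 0 SKBR3-alone peaks carried the core as well. AGACGGCA and GCATACG are also runs of the P7 primer of Illumina libraries, whose adapter the study's ChIP-exo protocol ligates on the beads. The part of the primer in these peaks was not tested. These stretches were chosen on the same peaks in which they were counted, and the core was found by the study in the same lists. All these shares are therefore descriptions.

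**Figure D1:**
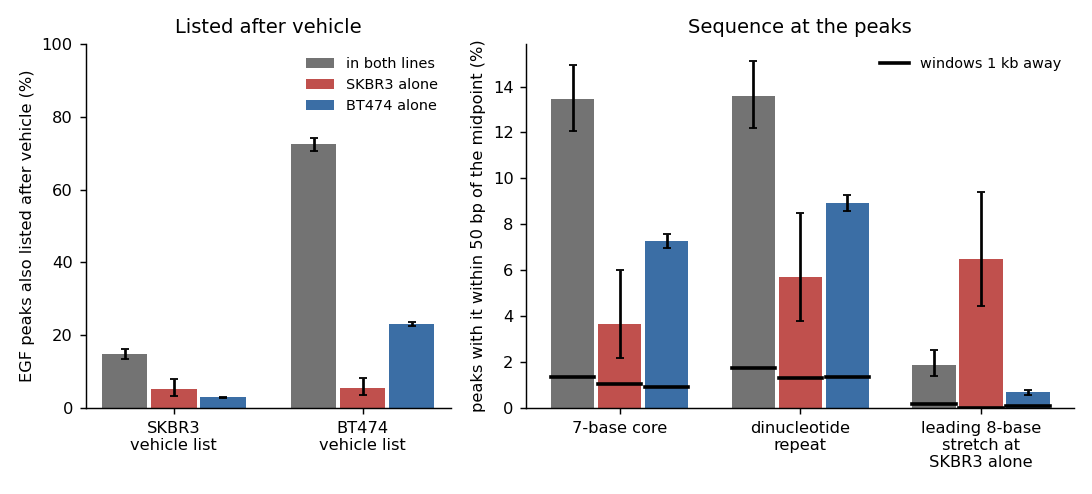
Left, percent of EGF peaks of each class (in both lines, SKBR3 alone, BT474 alone) that were also listed after vehicle in SKBR3 or in BT474. Right, percent of peaks with the 7-base core, the GA repeat and AGACGGCA within 50 bp of the midpoint, with black lines for windows 1 kb away and error bars for 95% Wilson intervals. AGACGGCA ranked second to AGACAGCA among the leading stretches at SKBR3 alone. BT474 vehicle lists 72.4% of the peaks in both lines, a share that is not independent of the classes, which rest on the BT474 EGF list. Peaks in both lines are SKBR3 peaks, centred on their SKBR3 midpoints. The SKBR3-alone peaks are lowest for the core and highest for AGACGGCA.

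The base of the comparison is that 2135 of the SKBR3 sites (84.7%, interval 83.3 to 86.1%) met a BT474 peak and 2110 BT474 peaks (7.20%, 6.91 to 7.50%) overlapped a SKBR3 peak. The BT474 list was 11.6 times as long, so 385 SKBR3 peaks (15.3%) and 27216 BT474 peaks (92.8%) had no partner. Partners lay close together: their midpoints were 28 bp apart in the median, and 77.3% of the 2135 pairs were within 50 bp. Most partners were single, since 2086 of the shared BT474 peaks overlapped 1 SKBR3 peak, 23 overlapped 2 and 1 overlapped 3. With the BT474 list shortened to its 2520 highest scores, 1011 SKBR3 peaks (40.1%, 38.2 to 42.0%) kept a partner and 987 BT474 peaks (39.2%, 37.3 to 41.1%) had one. The remaining 1124 SKBR3 peaks of both lines (44.6%) met only lower-ranked BT474 peaks. Among the top 100 of each list 26.0% of the SKBR3 peaks had a partner, among the top 500 31.0%, and among the top 1000 33.7%. The high share in SKBR3 therefore holds for the full BT474 list and not for its strongest peaks alone.

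Scores are on an unstated scale and were read only as ranks within a list. Sharing did not simply follow rank in SKBR3. In the top 10% of the SKBR3 list 83.3% (78.2 to 87.4%) of the peaks had a BT474 partner, in the next steps of 10% 94.8% and 94.4%, and then the share declined to 72.2% in the lowest step. Of the 42 peaks without a partner in the top 10%, 13 lay on 20q, and outside 20q the share there was 87.2% (82.2 to 90.9%). In the BT474 list the share was 36.6% in the top 10%, 12.1% in the next step, and 1.43 to 2.83% in all steps below the top 40%. BT474 partners of SKBR3 peaks sat at a median rank percentile of 90.5 (quartiles 73.3 and 96.9), whereas the SKBR3 peaks in both lines had a median percentile of 53.0 and the SKBR3-alone peaks 31.2 in their own list. Over the 2135 pairs, Spearman's rank correlation between the rank percentiles was 0.315, with all points from the same pair of libraries, and 164 pairs were in the top 10% of both lists.

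**Figure D2:**
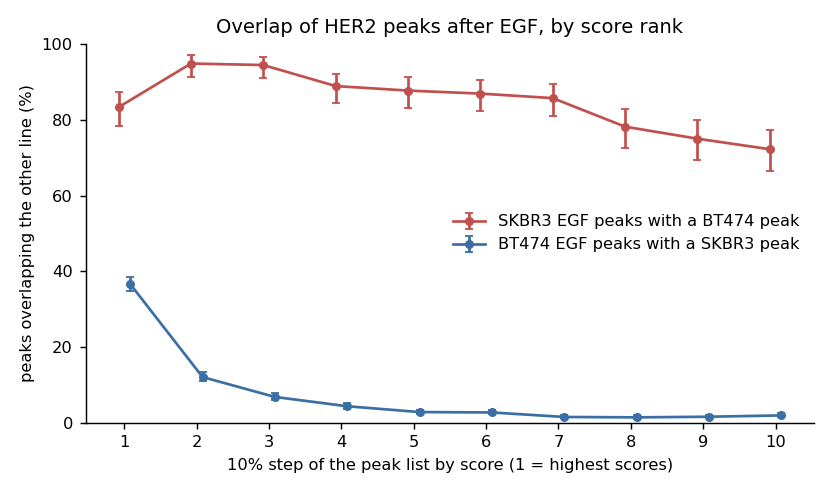
Percent of HER2 peaks after EGF that overlap a peak of the other line (y axis) in each 10% step of the list by score (x axis, 1 = highest), for SKBR3 and BT474, with 95% Wilson intervals. The SKBR3 shares lie between 72.2 and 94.8%, and the BT474 shares fall from 36.6% to 1.94% in the last step.

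The site ranked first in SKBR3 and second in BT474 lay at chr6:119558572-119558862, in an intron of MAN1A1, which encodes a mannosidase that trims N-glycans in the Golgi. The next shared sites by rank in both lists lay at chr10:98561168-98561551 (ranks 2 and 6), 30.7 kb from LCOR, a nuclear receptor corepressor, and at chr4:80274101-80274728 (ranks 3 and 10), 27.2 kb from NAA11, an N-terminal acetyltransferase. A site at chr21:11115893-11116658 (ranks 9 and 5) lay 125 kb from TPTE, close to a gap of the assembly, and a site in an intron of EHBP1, an EH domain-binding protein, at chr2:62957724-62958058, had ranks 4 and 128. All 5 were also listed in BT474 vehicle and 4 of them in SKBR3 vehicle. None of the 5 had an H3K4me1 island in either line or the core.

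Of the 8 best-ranked SKBR3-alone peaks, 4 were under 150 bp wide, and 3 (ranks 6, 11 and 25) lay within 1.16 kb of a BT474 peak. The highest, at rank 6, was 12 bp wide (chr1:156186158-156186169, in an intron of PMF1, a kinetochore protein) and lay 0.550 kb from a BT474 peak. The next, at rank 11, was 55 bp wide, lay 130 kb from CARTPT and 0.374 kb from a BT474 peak. Ranks 26 and 27 were narrow neighbours in an intron of UNC45B, a myosin chaperone, at chr17:33478018-33478114 and chr17:33478373-33478498, 118 and 119 kb from the nearest BT474 peak. Full-width sites followed at rank 15 in an intron of RIMS1, a presynaptic scaffold (chr6:72875779-72875978), at rank 16, 14.3 kb from NPR3, the natriuretic peptide clearance receptor (chr5:32674804-32675003), and at rank 17 in an intron of SLC7A9, an amino acid transporter (chr19:33356481-33356682). Their nearest BT474 peaks lay 33.7, 19.0 and 7.61 kb away, and only the site by NPR3 was listed in SKBR3 vehicle and lay in an H3K4me1 island of both SKBR3 replicates. Over the whole class, 10 of the 385 SKBR3-alone peaks were under 150 bp wide, against 5 of the 2135 in both lines, and 6 had a neighbour of equal score within 1 kb. Exactly 200 bp, the commonest width, was the width of 44.2% (39.3 to 49.1%) of the SKBR3-alone peaks and 30.2% (28.3 to 32.2%) of those in both lines.

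The best-ranked BT474-alone peaks, 304 to 1867 bp wide, were already present after vehicle. Ranks 1, 3 and 4 lay side by side on chr2:133023871-133029543, 9.12 to 13.1 kb from ANKRD30BL, and the SKBR3-alone peak of rank 25 (chr2:133032729-133033099) lay 1.16 kb from a BT474 peak of the same neighbourhood. Rank 22 lay 3.01 kb from OR14A2, an olfactory receptor, rank 31 in an intron of SDAD1, a ribosome biogenesis gene, rank 39 lay 13.2 kb from LYZL6, a lysozyme-like gene, and rank 49 in an intron of LINC00639. Rank 23 (chr14:106160027-106161857) lay 164 kb from TMEM121. All 8 were listed in BT474 vehicle, and rank 23 also in SKBR3 vehicle.

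Listing after vehicle differed widely between the classes. Listing in BT474 vehicle is not independent of them, because the classes rest on the BT474 EGF list. Per the study, most BT474 vehicle sites were also found after EGF, so SKBR3-alone peaks could seldom be listed there. Of the 2135 SKBR3 peaks in both lines, 1546 (72.4%, 70.5 to 74.3%) were already listed in BT474 vehicle and 315 (14.8%, 13.3 to 16.3%) in SKBR3 vehicle, and 517 (24.2%) in neither. Of the 385 SKBR3-alone peaks, 21 (5.45%, 3.60 to 8.19%) were listed in BT474 vehicle, 20 (5.19%, 3.39 to 7.89%) in SKBR3 vehicle, and 345 (89.6%) in neither. SKBR3-alone peaks were thus mostly found in a single list of the series. Of the 27216 BT474-alone peaks, 6250 (23.0%) were listed in BT474 vehicle, 796 (2.92%) in SKBR3 vehicle and 20353 (74.8%) in neither. The class depended on rank here too: among the 1533 BT474-alone peaks of the 2520 highest scores, 84.3% were in BT474 vehicle and 7.70% in SKBR3 vehicle. In SKBR3, listing in BT474 vehicle stayed apart between the classes at equal rank, at 76.9% against 8.59% among ranks 1 to 1260 and 67.4% against 3.89% among the lower ranks. Of the 20 SKBR3-alone peaks in SKBR3 vehicle, 11 lay on 20q, and outside that arm the share was 9 of 330 (2.73%, 1.44 to 5.10%).

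H3K4me1 did not separate the classes to that degree. In SKBR3 islands lay 15.4% ± 0.298 (SD, n = 2) of the peaks in both lines, 14.4% ± 0.184 of the SKBR3-alone peaks and 12.3% ± 0.0676 of the BT474-alone peaks. In BT474 islands the values were 12.6% ± 0.629, 11.6% ± 0.184 and 12.0% ± 0.535. In the full lists, sites of either line alone were thus not more often in the islands of their own line than those of both lines. Counted on BT474 peaks, 13.1% ± 0.503 of those in both lines lay in BT474 islands. Among the 1533 BT474-alone peaks of the 2520 highest scores it was 13.7% ± 0.830, so the order turned, within the spread of the replicates. Without 20q, the SKBR3-alone share in SKBR3 islands was 12.3% ± 0.214. Position relative to genes was also similar: introns held 53.1%, 53.5% and 55.4% of the peaks in both lines, SKBR3 alone and BT474 alone, intergenic sequence 37.5%, 36.4% and 35.5%, and the 1 kb upstream of a start site 4.64%, 6.75% (4.65 to 9.71%) and 4.53%.

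Along the genome, the share was lowest on 20q. Of 42 chromosome arms with peaks, 35 had at least 20 SKBR3 peaks, and over these the median share of SKBR3 peaks found in both lines was 86.7%, with 32 of the 35 at 80% or more. The exception was 20q, where 57 of 112 SKBR3 peaks (50.9%, 41.8 to 60.0%) had a BT474 partner. Next came 17q, the arm of ERBB2, with 45 of 61 (73.8%, 61.6 to 83.2%) and 15q with 47 of 62 (75.8%, 63.9 to 84.7%), whose intervals did not reach down to that of 20q. The highest shares were on 16q (31 of 32, 96.9%), 18q (96.0%), 4q (95.5%) and 14q (93.9%). Over the genome without 20q, 2078 of 2408 SKBR3 peaks (86.3%, 84.9 to 87.6%) were in both lines. The arm held 14.3% of the SKBR3-alone peaks, 4.44% of all SKBR3 peaks and 0.890% of the BT474 peaks. In the check with equal numbers of peaks, 20q stood at 15.2%, with only Xq lower, at 9.52%.

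**Figure D3:**
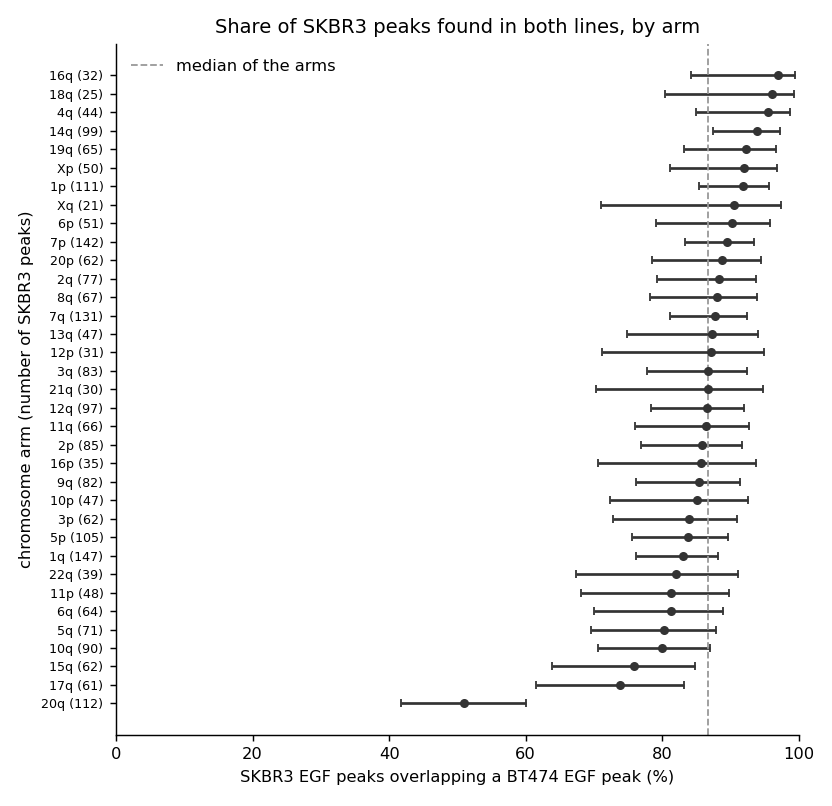
Percent of SKBR3 EGF peaks that overlap a BT474 EGF peak (x axis) for the 35 chromosome arms with at least 20 SKBR3 peaks (y axis, number of peaks in brackets), with 95% Wilson intervals and the median of the arms as a dashed line. The arm 20q, at 50.9%, lies below all others, and 32 arms are at 80% or more.

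The low share on 20q went with many SKBR3 peaks and few BT474 peaks. The arm carried 3.37 SKBR3 peaks per Mb, against a median of 0.880 over the arms, and 7.85 BT474 peaks per Mb, against a median of 10.0. There were 2.33 BT474 peaks for each SKBR3 peak, against 11.6 over both lists. At the other end stood 8p with 5 SKBR3 and 342 BT474 peaks, 4p with 8 and 449, and 18q with 25 and 763. Reads per kb of H3K4me1 island, relative to the genome, were 1.31 in SKBR3 and 1.73 in BT474 on 20q, 1.24 and 1.60 on 17q, and 2.19 and 1.06 on 8q. Over 41 arms, Spearman's rank correlation between SKBR3 peaks per Mb and SKBR3 H3K4me1 density was 0.631, as a description of arms that share 1 HER2 library and 1 pair of H3K4me1 libraries.

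Within 20q, 27 of the 55 SKBR3-alone peaks (49.1%, 36.4 to 61.9%) lay in a single run of the arm in which BT474 had no peak, and in the rest of the arm 57 of 85 SKBR3 peaks (67.1%, 56.5 to 76.1%) were in both lines. The longest stretch between neighbouring BT474 EGF peaks that held SKBR3 peaks was chr20:50447428-57425139, 6.98 Mb long, with no assembly gap. It held 27 SKBR3 EGF peaks and 37 SKBR3 vehicle peaks, and 0 BT474 EGF and 0 BT474 vehicle peaks. H3K4me1 islands were present there in both lines, with 1.53 ± 0.0211 times the genome's reads per kb in SKBR3 and 2.37 ± 0.0454 times in BT474 (SD, n = 2). Among its 36 protein-coding genes are ZNF217 and AURKA, known for extra copies in breast cancer, CYP24A1, the vitamin D hydroxylase, and TFAP2C, a luminal transcription factor, named here after the stretch had been seen. Per the study's methods, regions with a high input signal in a cell line were removed from the lists of that line. The part of this removal, and of copy number, in the missing BT474 peaks was not tested.

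The SKBR3 peaks of this stretch were among the stronger ones of the list. Of the 27, 21 were among ranks 1 to 1260, 8 were listed in SKBR3 vehicle, 2 had the core, and 6 lay in H3K4me1 islands of both SKBR3 replicates. The highest, at rank 35 (chr20:57173558-57173952), lay in an intron of a long non-coding RNA gene 52.6 kb from STX16, which encodes a syntaxin of the Golgi, was listed in SKBR3 vehicle and lay in islands of all 4 H3K4me1 libraries. Rank 54 (chr20:56108140-56108609) lay 7.67 kb from CTCFL, a paralogue of CTCF, and rank 60 (chr20:54730546-54730902) 93.1 kb from MC3R, a melanocortin receptor, and both were also in SKBR3 vehicle. Peaks within protein-coding genes were in introns of ANKRD60 (rank 125), GCNT7 (rank 157), a glycosyltransferase gene, and APCDD1L (rank 192). A peak 1.34 kb from BMP7, a ligand of the TGF-beta family, had rank 819 and lay in islands of both lines, as did a peak 11.9 kb from PMEPA1, a TGF-beta-induced gene, at rank 1841. A peak 4.86 kb from ZBP1, a sensor of Z-form nucleic acid (rank 806), lay in islands of SKBR3 alone.

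**Figure D4:**
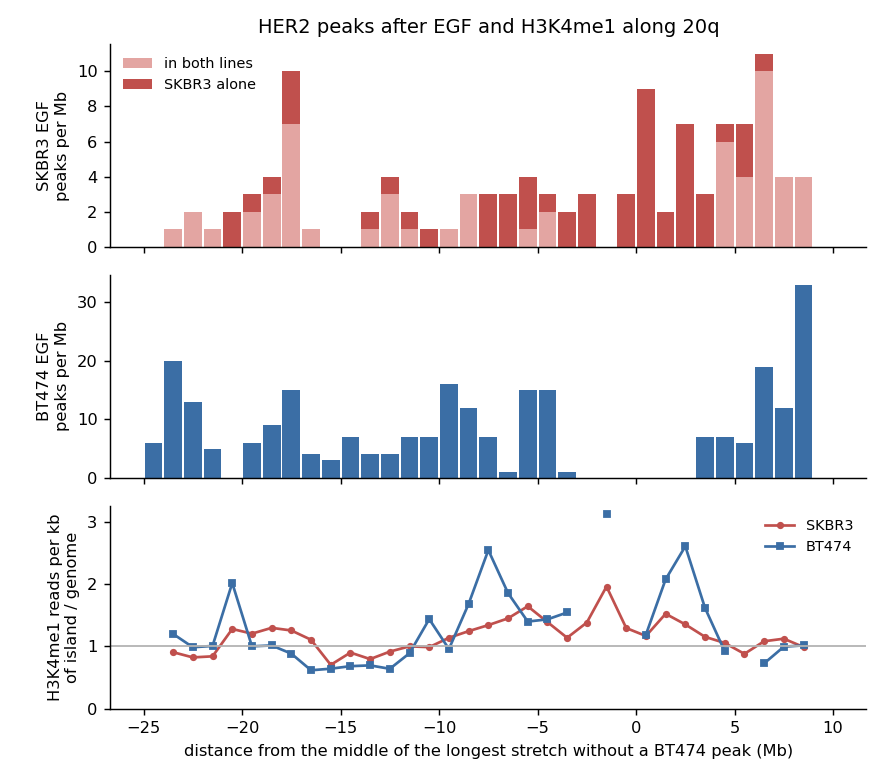
Peaks per 1 Mb bin along 20q for SKBR3 EGF (top, split into peaks in both lines and SKBR3 alone) and BT474 EGF (middle), and H3K4me1 reads per kb of island relative to the genome (bottom, mean of 2 replicates; a point is missing where a bin held too little island), against the distance from the middle of the longest stretch without BT474 peaks. SKBR3 peaks continue where BT474 peaks stop, and BT474 H3K4me1 density there is above 1 in the bins with a value.

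Counting stretches of at least 0.5 Mb between BT474 peaks, 31 held at least 1 SKBR3 peak, with 69 SKBR3 peaks in all, the longest included. Of the other 30 stretches, with 42 SKBR3 peaks, 6 were on 20q with 12 peaks, 3 on 17q and 21 on other arms, among them chr15:20342351-22795128, which was 25.6% unsequenced bases and held 4 peaks. BT474 H3K4me1 density exceeded 1.5 times that of the genome in 6 of the 24 stretches with a value. All 6 lay on 20q (5) or 17q (1), with 27 SKBR3 peaks in the longest and 11 in the other 5, and BT474 vehicle had 0 peaks in them. On 20q itself the density was not high throughout, at 0.424 ± 0.0377 in BT474 over chr20:41846987-42371633, which held 1 SKBR3 peak. The stretch on 17q, chr17:56613053-59476106, was 2.86 Mb long with 1 SKBR3 peak, and its density was 2.06 ± 0.0592 in BT474 and 0.665 ± 0.00923 in SKBR3.

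Stretches with at least 100 BT474 peaks and no SKBR3 peak numbered 15. The fullest, chr2:218659986-239035266, held 200 BT474 peaks in 20.4 Mb. The third, chr8:112273977-126882483, held 186 BT474 peaks in 14.6 Mb and stood apart by its H3K4me1 density, at 2.73 ± 0.00895 in SKBR3 and 1.09 ± 0.00762 in BT474. In the other 14 of the 15 the SKBR3 density was 0.652 to 0.883. SKBR3 vehicle had 2 peaks in this stretch of 8q. Whether regions of high input signal had been removed here from the SKBR3 lists was not tested.

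Genes were assigned by a start site within 10 kb of a peak. Of 20090 protein-coding genes, 649 (3.23%) were near a peak of both lines, 102 (0.508%) near a SKBR3-alone peak and 6034 (30.0%) near a BT474-alone peak. With equal numbers of peaks the counts were 308, 447 and 441, so the order of the classes rests on the length of the BT474 list. In gene bodies the counts were 878 (4.37%), 178 (0.886%) and 6249 (31.1%). Of the 742 genes near any SKBR3 peak, 87.5% were near a peak of both lines. Of the 649, 315 also had a BT474-alone peak within 10 kb, and 66 genes had a SKBR3-alone peak and no BT474 peak within that distance. Long genes held more peaks: among the longest 20% of genes 13.4% had a peak of both lines in the body and 76.6% a BT474-alone peak, and among the shortest 20% 0.572% and 4.21%. The counts of gene lists are therefore given with the length of their genes, and are to be read against these shares of all genes.

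Of 15 ERBB receptors and EGF family ligands, EGFR, ERBB3 and the ligand NRG2 held a peak of both lines in the body, and ERBB3 alone had one within 10 kb of a start site (1 of 15, against 3.23% of all genes). The ERBB3 site, chr12:56495537-56495787, lay in an exon 1.89 kb from an annotated start, with rank 160 in SKBR3 and 5141 in BT474. EGFR, the receptor of EGF, held 2 SKBR3 peaks, both in both lines, among them chr7:55129942-55130145 (rank 1729), and 3 BT474 peaks. ERBB2 held none, and its nearest peaks lay 715 kb away in SKBR3 and 358 kb in BT474. Both lines carry extra copies of ERBB2, and per the study's methods, regions of high input signal were removed from each line's lists. The part of this removal in the missing peaks was not tested. Among the other receptor tyrosine kinases, AXL, a receptor for GAS6, had a site of both lines at chr19:41727971-41728255, within 1 kb upstream of an annotated start, with ranks 796 and 76. INSR, ROR2, MUSK and PTK7 held such a site elsewhere in the gene body.

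Within the MAP kinase list, 1 of 43 genes (2.33%, against 3.23% of all genes) had a site of both lines within 10 kb of a start. This was MAP3K13, a kinase upstream of JNK, at chr3:185082111-185082405, with ranks 420 and 5326 and H3K4me1 islands in all 4 libraries. It held 1 SKBR3 and 5 BT474 peaks. MAPK8 and MAPK10, which encode JNK kinases, held a peak of both lines in the body. With MAP3K13 that was 3 of the 43 genes (6.98%, against 4.37% of all genes), with a median length of 73.5 kb for the list. Of the 9 protein kinase C genes, 0 had a site of both lines near a start and 5 (PRKCB, PRKCE, PRKCH, PRKCQ and PRKCI) had one in the body. The share in the body was 55.6%, against 4.37% of all genes and 13.4% of the longest 20%, with a median length of 153 kb for the list. PRKCH held 1 SKBR3 peak, in both lines, and 9 BT474 peaks. Of 24 PI3K and AKT genes, RPTOR, a subunit of mTORC1, had a site of both lines near a start (ranks 2450 and 1135). That was 4.17% of the list, against 3.23% of all genes. RPTOR and PIK3C2G held one in the body (8.33%, against 4.37% of all genes and 13.4% of the longest 20%). The median length of the list was 92.4 kb. Of 20 receptor-type phosphatases, which remove phosphate from tyrosines, 7 held a peak of both lines in the body, 16 a BT474-alone peak and 2 (PTPRD and PTPRT) a SKBR3-alone peak. Their median length was 190 kb, and among the longest 20% of all genes these shares were 13.4%, 76.6% and 2.84%. The 7 STAT genes held 0 peaks of both lines. STAT3 lay 218 kb from its nearest peak in each line, which was the same site.

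Immediate early genes, which EGF is known to switch on without new protein synthesis, had a median length of 7.17 kb. Of 17, JUN and NR4A1 had a site of both lines within 10 kb of a start (11.8%, against 3.23% of all genes), and 7 had a BT474-alone site, against 30.0% of all genes. NR4A1, an orphan nuclear receptor, had, next to CDH4, the best SKBR3 rank of the list members with a site near a start, at chr12:52419960-52420278, with ranks 92 and 326 and islands in all 4 H3K4me1 libraries. The site by JUN, a subunit of AP-1, was chr1:59243256-59243464, with ranks 828 and 1256. Of 15 feedback inhibitors of EGF signalling, DUSP2, an ERK phosphatase, had a site of both lines 5.72 kb from a start (ranks 503 and 5395) and SPRY4, a Sprouty protein, one at 7.81 kb (ranks 2079 and 28471). That was 13.3% of the list, against 3.23% of all genes. A BT474-alone site near a start was found for 0 of the 15, against 30.0% of all genes. MYC held 0 SKBR3 peaks, the nearest being 440 kb away, and 1 BT474 peak. On 8q, the arm of MYC, H3K4me1 density relative to the genome was 2.19 in SKBR3 and 1.06 in BT474. The part of copy number, or of the removal of regions with high input signal, in these counts was not tested. CCND1, CDKN1A, PTGS2 and MAPK11 held no peak in either line, and their nearest BT474 peaks lay 11.1, 12.9, 271 and 3.31 kb away. Of the 10 genes that the study names, 3 (EGFR, MAP3K13 and PRKCH) held a peak of both lines (30.0%, against 4.37% of all genes). Since the study drew some of the 10, among them MAP3K13 and PRKCH, from these peak lists, the count is not independent of them.

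Of 17 luminal breast transcription factors, TFAP2A had a site of both lines 5.73 kb from a start (1 of 17, or 5.88%, against 3.23% of all genes). This site had ranks 725 and 1563 and islands in 2 SKBR3 and 1 BT474 replicates. Of the 17, 4 had a BT474-alone site near a start, against 30.0% of all genes. Of 14 keratins, 0 were near a site of both lines, and KRT14, a basal keratin, was the only list member with a SKBR3-alone site near a start, at chr17:39729819-39730038 (rank 886), 9.67 kb away, in H3K4me1 islands of both SKBR3 replicates and neither BT474 replicate. Of the 9 genes used to check the lines, 0 were near a site of both lines. Of 50 ribosomal protein genes, short and expressed in every cell, 0 had a site of both lines near a start and 7 a BT474-alone site. The shares of all genes were 3.23% and 30.0%.

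Of 30 cadherins and catenins, CDH4, CDH24 and CDH26 had a site of both lines near a start (10.0%, against 3.23% of all genes). In the body, 8 held one (26.7%, against 4.37% of all genes and 13.4% of the longest 20%), with a median length of 149 kb. CDH4 and CDH26 lie on 20q, which carried 3.37 SKBR3 peaks per Mb, against a median of 0.880 over the arms. CDH4, the retinal cadherin (chr20:59827317-60515673, 688 kb, distal to the stretch without BT474 peaks), held 10 peaks of both lines, the most of any protein-coding gene, 2 SKBR3-alone peaks and 3 BT474-alone peaks. Its site nearest to a start, chr20:60180211-60180687, had ranks 68 and 4719. The site by CDH24, chr14:23535221-23535529, had ranks 655 and 67 and islands in all 4 H3K4me1 libraries. The genes next in number of shared peaks were FOXN3, a forkhead repressor, PTPRN2, a receptor-type phosphatase of secretory granules, and SDK1, a cell adhesion protein, with 5 each, and ADARB2, an RNA editing homologue, with 4. Over all protein-coding genes, 124 held at least 2 peaks of both lines and 32 at least 3.

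Of 32 long neural adhesion genes, with a median length of 1183 kb, all 32 held a BT474-alone peak in the body, 9 a peak of both lines and 8 a SKBR3-alone peak. Among the longest 20% of all genes, from 90.4 kb upward, these shares were 76.6%, 13.4% and 2.84%. CNTNAP2, a neurexin-like protein (ranks 1068 and 505), NRXN3, a neurexin (1288 and 5746), and TENM4, a teneurin (1049 and 654), had sites of both lines 0.603, 0.393 and 0.271 kb from a start. That was 9.38% of the list, against 3.23% of all genes. Genes without a SKBR3 peak and with the most BT474-alone peaks were all long, from 729 to 2173 kb: DLG2 with 28 and DLGAP1 with 26, which encode postsynaptic scaffold proteins, CNTN5, a contactin, with 22, NLGN1, a neuroligin, with 19, and TRAPPC9, a vesicle trafficking gene, with 19. The genes with the most SKBR3-alone peaks, chosen after their values were seen, were CLSTN2, a calsyntenin, and CTNNA3, an alpha-catenin, with 3 each, and ATP9A, on 20q, had 2 with 0 BT474 peaks.

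**Figure D5:**
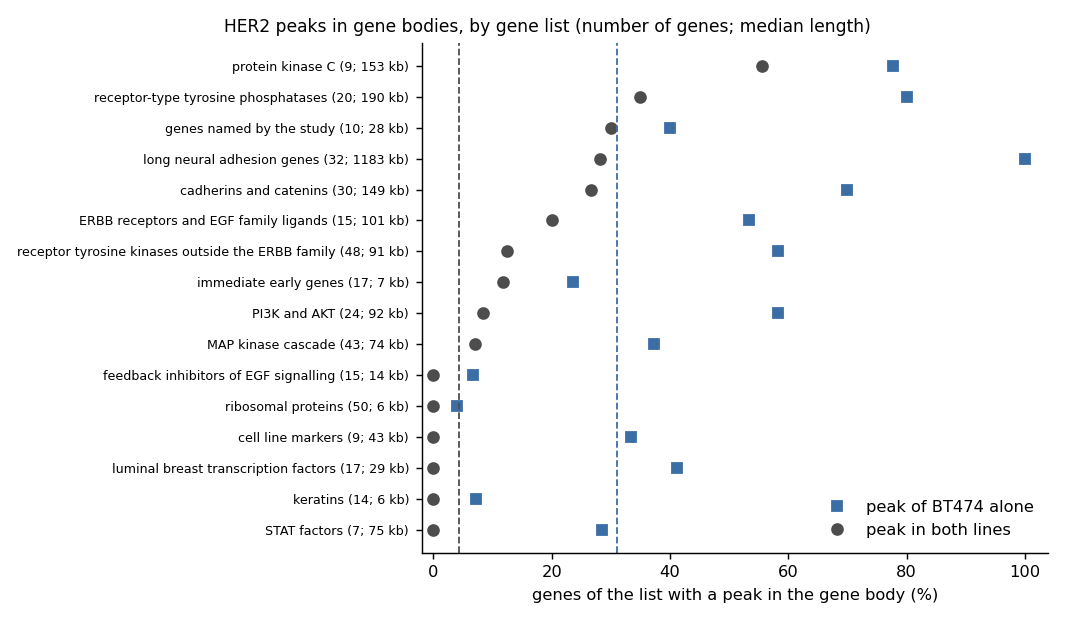
Percent of the genes of each list (x axis) with a peak of both lines (circles) or a BT474-alone peak (squares) in the gene body, with the number of genes and their median length beside the list's name. Dashed lines mark all protein-coding genes, at 4.37% and 31.1%. Protein kinase C lies farthest to the right for peaks of both lines and the long neural adhesion genes for BT474-alone peaks.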

How the data were processed

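HER2 ChIP-exo peak lists (1 library per line and treatment) and H3K4me1 islands (2 replicates per line) were analysed. Per the study's methods the authors aligned reads to hg19 with bowtie2, called peaks with MACS2 and islands with SICER, and removed ENCODE blacklist regions and regions of high input signal. The submitters' processing notes name BWA 0.5.9, MACS 1.4.1 and SICER 1.1 instead. HER2 peaks carry a score that the authors deposited, read here only as a rank within its list, since its scale is not stated; the depth of these libraries is unknown. The count of reads per H3K4me1 island was used as deposited, whole reads without scaling, totalling 15.1 to 18.7 per library in units of 1e6 reads. Nothing says whether the replicates were separate cultures. The 2 input samples were not analysed here.

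Peaks overlapping by 1 bp or more were counted as in both lines. Equal numbers were made by keeping the 2520 highest BT474 scores. Ties kept file order. Gene models were those of GENCODE release 44 lifted to GRCh37, which differs from the study's annotation, and sequence from GRCh37. A site was assigned to promoter (1 kb upstream), exon, intron or intergenic sequence, in that order. Arms were split at the centromere gap. H3K4me1 density is reads per kb of island divided by its genome value. Stretches of 8 bases were ranked by their excess over windows 1 kb away. Wilson intervals (95%) cover counting error only. Named genes were those at the 5 best-ranked sites of both lines and the 8 best of each line alone, those with the most peaks, those the study names, and list members with a site of both lines or of SKBR3 alone within 10 kb of a start. Other genes, among them those of the 20q stretch and list members named for a peak in the body, were chosen after their values were seen. The members and the gene lists were chosen with earlier results of these data known. Overlap and core search were tested on simulated data. Alternatives were other overlap rules, equal numbers, rank or width limits, other windows, leaving out a replicate and leaving out 20q. Python 3.11.15, pandas 2.3.3, scipy 1.17.1 and pysam 0.24.0 were used.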

Additional observations from a re-analysis of the deposited data

How the results depend on the processing

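Lists without replicates and without read counts limit every comparison of the lines to positions and ranks, and the length of the BT474 list sets the share of SKBR3 peaks called shared. Of 71 values recomputed for 17 results, 33 stayed within the counting interval, the replicate SD or 1.5 times the count, and 38 moved. With equal numbers of peaks, the share in both lines was 40.1% in SKBR3 and 39.2% in BT474, the lowest arm (Xq) 9.52% and the highest (18q) 60.0%. Peaks of both lines were then listed in SKBR3 vehicle at 22.2% and in BT474 vehicle at 91.7%, and BT474-alone peaks in BT474 vehicle at 84.3%. The share with the core was then 15.2% in both lines, 9.74% in SKBR3 alone, which then takes in peaks that met lower-ranked BT474 peaks, and 8.87% in BT474 alone. SKBR3-alone peaks lay in SKBR3 H3K4me1 at 15.1% and BT474-alone peaks in BT474 H3K4me1 at 13.7%, and the genes near a start numbered 308, 447 and 441.

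Among the other overlap rules, covering 50% of the peak gave 6.72% for BT474. Allowing 1 kb gave 7.57% for BT474, 23.7% for BT474-alone peaks in BT474 vehicle and 100.0% for the highest arm. The upper ranks of each list gave 82.4% and peaks of 1 kb or less 83.1% for SKBR3. Requiring an island in both replicates gave 13.2% for both lines and 12.5% for SKBR3 alone in SKBR3, and 9.998% for BT474 alone in BT474. Leaving out a replicate gave 15.2 to 15.6%, 14.3 to 14.6% and 11.6 to 12.3%. For the core, the whole peak gave 17.8% in both lines (SKBR3 peaks) and 11.1% in BT474 alone. Taking 100 bp to either side gave 17.1% and 10.5%. Start sites within 1 kb gave 149, 20 and 1452 genes, all annotated genes 1308, 238 and 13970, and gene bodies 178 for SKBR3 alone. Leaving out 20q, chosen after seeing the data, gave 86.3% of SKBR3 peaks in both lines, 2.73% of SKBR3-alone peaks in SKBR3 vehicle and 12.3% in SKBR3 H3K4me1. No paired analysis was possible because the HER2 lists have no replicates and the H3K4me1 values come from no test.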
